A study of Mus musculus with 8 samples.

Results

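NAD metabolism and the sirtuins were examined in brown adipose tissue (BAT) through 10 genes chosen by name: Nampt, Nmnat1, Nmnat3, Nmrk1 and Naprt, which make NAD, Nnmt and Aox1, which clear nicotinamide, and the NAD consumers Cd38, Sirt1 and Sirt3. They are 10 of the 31053 genes in the count table, and all 10 were found in it by Ensembl identifier and symbol. The rule that picks them is a list of names, which was drawn up with earlier results of these data known. In BAT of db/db mice, 4 of these genes were lower than in wild-type (WT) mice, namely Nampt, Nmnat1, Naprt and Sirt3, and Nnmt was higher, where 27.7% of all genes tested differed, 11.9% downward and 15.8% upward.

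NAD carries electrons between the pathways that burn fuel and the respiratory chain, and it is also used up as a substrate. In most tissues it is rebuilt mainly from nicotinamide, by NAMPT and then by an NMNAT enzyme. Nicotinamide riboside enters through NMRK1 and nicotinic acid through NAPRT, while NNMT methylates nicotinamide and so takes it out of this cycle. Sirtuins, ADP-ribose polymerases and CD38 split NAD and release nicotinamide. Brown adipocytes are rich in mitochondria and use fuel to make heat, and SIRT3 is the main deacetylase of the mitochondrial matrix.

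BAT was profiled by bulk RNA-seq in 4 WT and 4 db/db mice, all 8 weeks old. The study's methods state that tissues were harvested after fasting, from mice given normal diet and kept on an inverted light cycle. db/db mice are homozygous for a loss-of-function allele of the leptin receptor gene and become obese and diabetic. Per the study's methods all mice were males, the WT mice were C57BL6/J from one vendor and the db/db mice were a congenic line on that background from another. The study's list of materials gives the same vendor for both and names the db/db line by a stock number only. Whether vendor or genetic background differs with genotype is therefore not settled by the sources. The labels call the strain C57BL6/J in both groups and give the stromal vascular fraction as the cell type of BAT.

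The WT libraries held 2374079 to 2615009 counts and the db/db libraries 2382722 to 3240074. Levels are given in CPM, which are counts scaled to a common library size by the TMM method over the tested genes, and the detection floor of 3 counts corresponded to 0.902 to 1.33 CPM. The labelled stromal vascular fraction goes against the markers, since 6 adipocyte markers summed to 11392 to 20386 CPM in WT and 14331 to 19236 CPM in db/db. Of these 6, Plin1 and Fabp4 were higher in db/db (log2 fold changes 0.79 and 0.65) and Cfd was lower (-2.66), and the other 3 did not pass the test. Brown adipocyte markers were abundant in both groups and lower in db/db, at 7206 to 8927 CPM in WT and 2995 to 5522 CPM in db/db, and 4 of the 4 tested passed the test downward. Other cell types moved with genotype: 12 of 12 skeletal muscle, 8 of 8 macrophage, 7 of 7 fibroblast and 4 of 6 white adipocyte markers were higher in db/db, and 2 of 6 endothelial markers were lower. Summed muscle markers reached 436 to 1559.5 CPM in WT libraries and 2301 to 11426 CPM in db/db libraries, and summed macrophage markers 154 to 202 and 731 to 1286 CPM. White adipocyte markers summed to 111 to 341 CPM in WT and 1885 to 2905 CPM in db/db, fibroblast markers to 479.9 to 600.5 and 934 to 1949.7 CPM, and endothelial markers to 357 to 425 and 252 to 301 CPM. db/db replicate 1 stood apart, with the highest muscle sum and with a sum of 8 B and T lymphocyte markers of 24.1 CPM against at most 6.75 CPM in the other 7 libraries. Log2 fold changes without it are therefore given as well. In bulk tissue, fewer cells of a type and less RNA per cell cannot be told apart, and the part of these cell types in the results below was not tested except as stated.

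Of the 10 genes, 8 had a RefSeq promoter window in the build GRCm38.p6, covering the 250 bases before the transcription start, and Naprt and Nnmt are named only. Nmnat1 and Sirt3 have 2 windows each, which makes 10 windows in all. The windows were searched on both strands for an E-box (CACGTG, read by CLOCK and BMAL1), the core motif of nuclear receptors (AGGTCA), a cAMP response element (TGACGTCA) and a GC box (GGGCGG). In these 10 windows no match overlapped a match of another motif. The windows of Nampt and Nmnat3 are printed because these genes catalyse consecutive steps of the salvage route, the first was lower in db/db and the second did not pass the test, and their windows hold no annotated exon. Capitals mark the motif matches on either strand.
Nampt, chr12:32820085-32820334, plus strand: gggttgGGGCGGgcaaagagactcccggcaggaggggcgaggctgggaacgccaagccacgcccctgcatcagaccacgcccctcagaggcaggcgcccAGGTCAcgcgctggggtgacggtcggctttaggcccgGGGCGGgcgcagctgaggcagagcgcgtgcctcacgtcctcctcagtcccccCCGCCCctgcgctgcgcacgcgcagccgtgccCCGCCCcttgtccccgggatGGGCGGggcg
Nmnat3, chr9:98296320-98296569, plus strand: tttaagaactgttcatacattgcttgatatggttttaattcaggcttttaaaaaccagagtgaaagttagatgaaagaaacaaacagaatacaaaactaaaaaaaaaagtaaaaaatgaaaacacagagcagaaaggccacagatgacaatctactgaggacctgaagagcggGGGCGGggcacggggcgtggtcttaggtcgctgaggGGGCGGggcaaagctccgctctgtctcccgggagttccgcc
The Nampt window was 75.6% GC and held 5 GC boxes, which start 244, 114, 62, 30 and 10 bases before the transcription start, and a nuclear receptor motif 151 bases before it. The Nmnat3 window was 45.6% GC and held 2 GC boxes, 77 and 41 bases before the start. Both windows lie inside the extent of their gene in the GENCODE annotation, which begins further upstream. GC boxes were common, in 32.74% of the 32851 windows of all genes, and also occurred in those of Aox1 and Sirt1, in both of Nmnat1, which overlap, and in 1 of the 2 of Sirt3. The nuclear receptor motif was found in 14.02% of all windows and, among the 8 genes, only in that of Nampt. The E-box was found in 6.02% of all windows and, among the 8 genes, only in that of Sirt1, with 2 matches 115 and 43 bases before the start. The cAMP response element, present in 1.55% of all windows, had no match in the 10. A match is a run of letters and was not tested for binding.

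To ask whether these genes differ between the genotypes, all genes that passed a filter on low counts were tested with edgeR's quasi-likelihood test with Benjamini-Hochberg adjustment. Of the 9264 genes tested, 27.7% passed an adjusted p of 0.05, 15.8% upward and 11.9% downward in db/db. Of the 10 genes, 9 passed the filter, 4 were called lower and 1 higher, and Cd38 had too few counts. The same 5 genes were those whose db/db and WT libraries did not overlap, a separation seen in 28.1% of all genes tested, 15.3% upward and 12.7% downward. Without db/db replicate 1 the count of called members was 6, Sirt1 being the one added. The median log2 fold change of the 9 genes was -0.86, against 0.0066 over all genes tested.

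**Figure D1:**
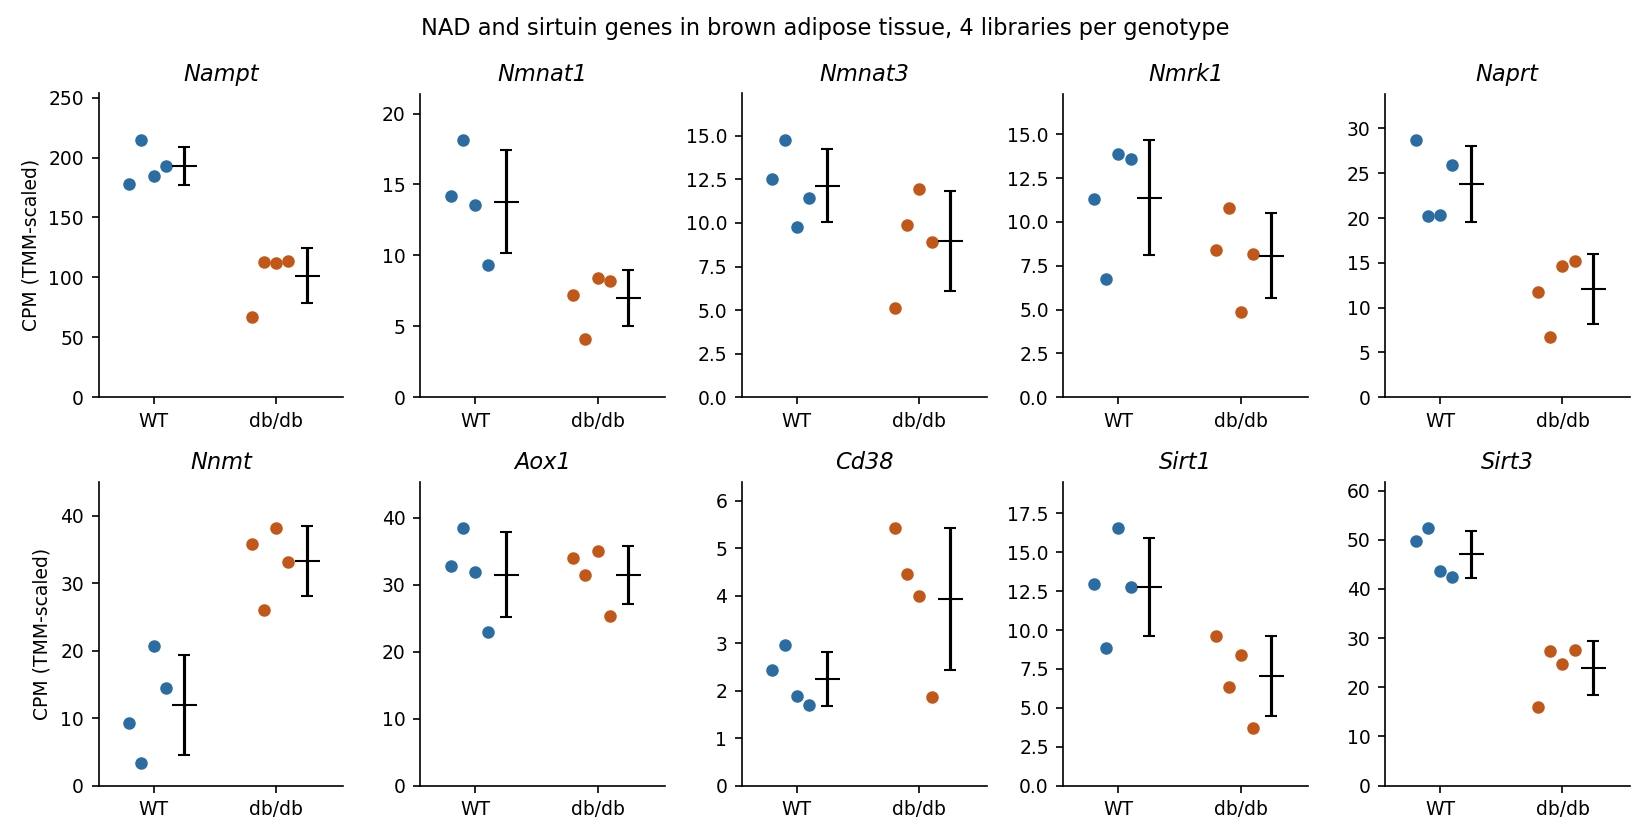
Level of each of the 10 genes in CPM (y axis, from 0) in the 4 WT and 4 db/db libraries (points, in the order of their replicate numbers), with the mean (horizontal line) and SD (bar) of each genotype. The db/db libraries lie below all WT libraries for Nampt, Nmnat1, Naprt and Sirt3, above all of them for Nnmt, and among them for Aox1.

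Nampt, the rate-limiting enzyme of NAD salvage from nicotinamide, was lower in db/db (ENSMUSG00000020572, mm10 chromosome 12, 32819545 to 32853349, plus strand). Its level was 178, 215, 185 and 193 CPM in WT replicates 1 to 4 and 67.1, 113, 112 and 113 CPM in db/db replicates 1 to 4. Every db/db library lay below every WT library. The lowest was db/db replicate 1, which had the highest muscle sum and also the lowest brown adipocyte sum, 2995 CPM. The means were 193 ± 16.0 and 101 ± 22.8 CPM (SD, n = 4 each). This is a log2 fold change of -0.93 with an SE of 0.16, a 95% interval of -1.27 to -0.59 and an edgeR adjusted p of 0.000323. Without db/db replicate 1 the log2 fold change was -0.78 and still passed the test. Each library held between 223 and 509 Nampt counts, the most of the 10 genes.

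The NMNAT enzymes join the product of NAMPT or NMRK1 to ATP to give NAD. Nmnat1, the nuclear form (ENSMUSG00000028992, chromosome 4, 149467572 to 149485202, minus strand), had 14.2, 18.1, 13.5 and 9.34 CPM in WT and 7.22, 4.14, 8.42 and 8.18 CPM in db/db. The genotypes did not overlap, although WT replicate 4 lay close to the highest db/db library. The log2 fold change was -0.99 with an SE of 0.30 and an edgeR adjusted p of 0.0204. The counts behind it were only 13 to 43 reads per library, and the call was lost without WT replicate 2 (log2 fold change -0.84, adjusted p = 0.0772 by edgeR) and without db/db replicate 2 (-0.80, adjusted p = 0.0612).

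Nmnat3, usually described as the mitochondrial form (ENSMUSG00000032456, chromosome 9, 98287435 to 98420438, plus strand), had 12.5, 14.8, 9.77 and 11.5 CPM in WT and 5.11, 9.86, 11.97 and 8.93 CPM in db/db. The genotypes overlapped. The log2 fold change of -0.45 did not pass the test, with a 95% interval of -1.07 to 0.17 and an edgeR adjusted p of 0.275, and the interval holds both no change and a change as large as that of Nampt. Nmnat2, the form best known from neurons, had 0 counts in all 4 WT libraries and at most 1 in db/db.

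The genes of the entry routes from other precursors had fewer reads than Nampt. Naprt, which starts NAD synthesis from nicotinic acid (ENSMUSG00000022574, chromosome 15, 75890956 to 75894481, minus strand), had 28.7, 20.3, 20.3 and 25.9 CPM in WT and 11.7, 6.68, 14.6 and 15.3 CPM in db/db. All db/db libraries lay below all WT libraries. The log2 fold change was -0.99, with an SE of 0.26, a 95% interval of -1.53 to -0.45 and an edgeR adjusted p of 0.00761. Naprt shares exon bases on the same strand with Eef1d, a translation elongation factor, so its reads are uncertain in part, while Eef1d itself had a log2 fold change of -0.0035 (edgeR adjusted p = 0.989). Nmrk1, the kinase of nicotinamide riboside (ENSMUSG00000037847, chromosome 19, 18631950 to 18652428, plus strand), had 11.3, 6.75, 13.9 and 13.6 CPM in WT and 8.42, 10.8, 4.88 and 8.18 CPM in db/db. These ranges overlapped, and the log2 fold change of -0.48 did not pass the test (95% interval -1.13 to 0.18, edgeR adjusted p = 0.276).

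Nicotinamide is cleared by methylation and then oxidation, and here the gene of the first step was higher in db/db and that of the second did not pass the test. Nnmt, the methyltransferase, which spends S-adenosylmethionine in the reaction (ENSMUSG00000032271, chromosome 9, 48591877 to 48605153, minus strand), had 9.31, 3.38, 20.7 and 14.4 CPM in WT and 35.8, 26.1, 38.1 and 33.1 CPM in db/db. Every db/db library lay above every WT library. The log2 fold change was 1.46 with an SE of 0.33, a 95% interval of 0.77 to 2.15 and an edgeR adjusted p of 0.00265, a fold of 2.75. The WT libraries spread far more than the db/db ones, with a coefficient of variation of 61.6% where counting error alone gives 18.3%, against 15.7% and 10.3% in db/db. Reads per library ran from 8 to 119. White adipocyte markers summed to 232, 111, 341 and 138 CPM in WT replicates 1 to 4, and fibroblast markers to 557, 479.9, 600.5 and 506 CPM. Both were highest in replicate 3 and lowest in replicate 2, as Nnmt was, but replicate 4 had more Nnmt than replicate 1 and less of both. Retn made up the largest part of the white adipocyte sum in WT, at 108, 57.8, 230 and 59.4 CPM. It did not differ by genotype in the test (log2 fold change -0.13, edgeR adjusted p = 0.820). Among the db/db libraries, replicate 3, with the most Nnmt, had the highest white adipocyte sum (2905 CPM) but the lowest fibroblast sum (934 CPM). The part of these cell types in the Nnmt difference was not tested.

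Aox1, an aldehyde oxidase that turns methylnicotinamide into pyridones (ENSMUSG00000063558, chromosome 1, 58029931 to 58106413, plus strand), had 32.8, 38.4, 31.9 and 22.9 CPM in WT and 34.0, 31.5, 35.02 and 25.3 CPM in db/db. All 4 db/db libraries lay within the range of the WT libraries. The 95% interval of its log2 fold change, -0.40 to 0.40, excludes a change as large as that of Nnmt, and the edgeR adjusted p was 0.990. Its relatives Aox2, Aox3 and Aox4 had 0 counts in all 8 libraries.

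Cd38, an NAD glycohydrolase of immune cells (ENSMUSG00000029084, chromosome 5, 43868553 to 43912375, plus strand), was near the detection floor. Its counts were 6, 7, 5 and 4 in WT and 18, 14, 9 and 5 in db/db, or 2.43, 2.95, 1.88 and 1.70 CPM against 5.41, 4.45, 3.99 and 1.86 CPM. Of the db/db libraries, 3 lay above all WT libraries and replicate 4 did not, and an exact two-sided permutation test on log2 CPM gave p = 0.114, where the smallest p that 4 against 4 allows is 0.0286. Tested by edgeR among every gene with a count, its log2 fold change was 0.76 with an adjusted p of 0.397. Cd38 and the macrophage sum were both higher on average in db/db, where the macrophage sum was 1286, 731, 731 and 1089.6 CPM in replicates 1 to 4. The lymphocyte sum was 24.1 CPM in replicate 1 and 1.86 to 2.55 CPM in the other db/db libraries, and the part of immune cells in the Cd38 level was not tested. Bst1, the related glycohydrolase, had 0, 0, 1 and 0 counts in WT and 8, 4, 1 and 2 in db/db. These groups did not overlap in CPM (exact two-sided permutation p = 0.0286, the smallest possible), but over every gene with a count the edgeR adjusted p was 0.101 (DESeq2 0.113). WT replicate 3 and db/db replicate 3 held 1 count each and differ in CPM only by library size, and Bst1 overlaps Fbxl5, which was higher itself (log2 fold change 0.61, edgeR adjusted p = 0.0414), so the value is uncertain.

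Sirt3, the mitochondrial deacetylase, was lower in db/db (ENSMUSG00000025486, chromosome 7, 140863666 to 140882309, minus strand). Its level was 49.8, 52.3, 43.6 and 42.4 CPM in WT and 15.9, 27.4, 24.8 and 27.5 CPM in db/db. All db/db libraries lay well below all WT libraries. The means were 47.0 ± 4.78 and 23.9 ± 5.46 CPM (SD, n = 4 each), a log2 fold change of -0.98 with an SE of 0.19, a 95% interval of -1.38 to -0.58 and an edgeR adjusted p of 0.000831. Without db/db replicate 1 it was -0.83 and still passed the test. Exons of Sirt3 overlap those of Psmd13 and Ric8a on the other strand, and whether reads were counted by strand is not given in the sources used here. Neither neighbour passed the edgeR test, with log2 fold changes of 0.10 (adjusted p = 0.635) and 0.16 (adjusted p = 0.640).

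Sirt1, the best studied nuclear sirtuin (ENSMUSG00000020063, chromosome 10, 63319005 to 63381704, minus strand), had 12.9, 8.86, 16.5 and 12.7 CPM in WT and 9.63, 6.36, 8.42 and 3.72 CPM in db/db. In db/db, 3 libraries lay below all WT libraries and replicate 1 lay above the lowest WT library. The log2 fold change was -0.86 with a 95% interval of -1.52 to -0.19, and the edgeR adjusted p of 0.0527 missed the threshold. The call turned on the settings: it passed under 5 of 9 other tests, scalings, filters and the replicate block, and in the fits without db/db replicate 1 (log2 fold change -1.07, adjusted p = 0.0289) and without WT replicate 2 (-1.01, adjusted p = 0.0370).

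The other sirtuins did not pass the test, and their levels ran both ways. Sirt2, mainly cytosolic, had a log2 fold change of -0.044 with a 95% interval of -0.35 to 0.26 (edgeR adjusted p = 0.859), and it overlaps Nfkbib. Sirt5, a mitochondrial desuccinylase, had 3.24, 3.38, 5.26 and 8.91 CPM in WT and 4.81, 11.1, 9.75 and 11.9 CPM in db/db. The groups overlapped, and the log2 fold change of 0.84 had a 95% interval of 0.016 to 1.67 and an edgeR adjusted p of 0.121. It passed in 2 of the 8 fits that left out a library, without WT replicate 4 (1.21, adjusted p = 0.0460) and without db/db replicate 1 (1.07, adjusted p = 0.0457). Sirt7, which overlaps Mafg, had a log2 fold change of 0.38 (edgeR adjusted p = 0.300), and Sirt4 and Sirt6 had too few reads for the test, with 1 to 10 and 3 to 16 counts per library. Rps19bp1, an activator of SIRT1, was lower in db/db with a log2 fold change of -0.59 (SE 0.19, edgeR adjusted p = 0.0261), but the call was lost without WT replicate 4 and without db/db replicate 1, 2 or 3, with edgeR adjusted p-values of 0.0531 to 0.0727.

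The mean brown adipocyte sum in db/db was 0.53 of that in WT. The genes called lower stood at 0.52 (Nampt), 0.51 (Sirt3), 0.50 (Naprt) and 0.50 (Nmnat1) of WT, while Aox1 stood at 0.998 and Nnmt at 2.75. No brown adipocyte score was fitted, and the part of brown adipocytes in these differences was not tested. Because skeletal muscle and macrophage transcripts moved with genotype, the members were set beside them. Among the db/db libraries, muscle transcripts were fewest in replicate 4, at 2301 CPM, and among the WT libraries they were most in replicate 4, at 1559.5 CPM. In this closest pair Nampt stood at 113 CPM in db/db and 193 CPM in WT, Sirt3 at 27.5 and 42.4 CPM, Naprt at 15.3 and 25.9 CPM, Nnmt at 33.1 and 14.4 CPM, and Nmnat1 at 8.18 and 9.34 CPM, nearly equal. A single pair of libraries allows no test. A score of the 12 muscle markers, the mean of their standardised log2 CPM, shared 65.4% of its variance with genotype, and a score of the 8 macrophage markers shared 94.3%. With the muscle score as a term in the edgeR fit, 0 of the 10 genes passed, while 3 (Nampt, Nnmt and Sirt1) had an unadjusted p under 0.05. Nampt was then at -0.61 (adjusted p = 0.186), Sirt3 at -0.49 (adjusted p = 0.424), Naprt at -0.91 (adjusted p = 0.268), Nmnat1 at -0.87 (adjusted p = 0.429) and Nnmt at 1.23 (adjusted p = 0.184). Sirt1 moved the other way, from -0.86 to -1.45 (adjusted p = 0.157). The calls among all genes fell in the same fit from 2568 to 605. With the macrophage score 18 genes of all passed, and of the 10 genes 0 passed by edgeR and 0 had an unadjusted p under 0.05, so at this size genotype and macrophage content cannot be told apart. The log2 fold changes moved in both directions in that fit: Nampt stood at 0.60, Sirt3 at 0.27 and Nnmt at -0.34, opposite to their reported signs, while Naprt stood at -1.31, Nmnat1 at -1.08 and Sirt1 at -2.54.

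**Figure D2:**
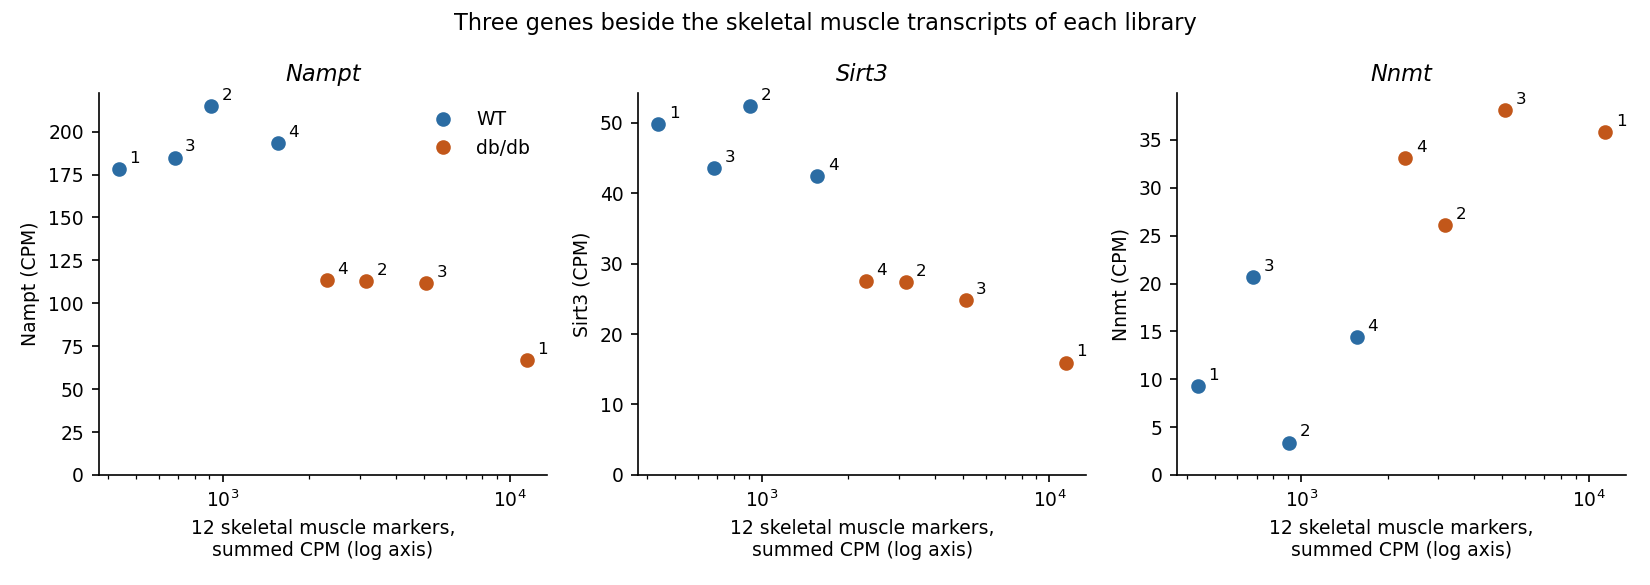
Levels of Nampt, Sirt3 and Nnmt in CPM (y axes, from 0) against the summed CPM of 12 skeletal muscle markers (x axis, log scale) in each library, numbered by replicate. No db/db library has as few muscle transcripts as any WT library, and db/db replicate 1, at 11426 CPM, has the lowest Nampt and Sirt3.

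The wider pathway was described through 9 lists holding 86 genes, the 10 included. Of the other 76 genes, 45 were tested, and 3 were called higher and 13 lower in db/db, 35.6% of those tested beside the 27.7% of all genes. Their median log2 fold change was -0.17. Without db/db replicate 1, 15 of these genes passed.

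In NAD synthesis and salvage, 7 of 13 genes were tested, 4 were lower and none higher, 57.1% of those tested beside the 27.7% of all genes. Beside Nampt, Nmnat1 and Naprt the 4th was Slc25a51, which carries NAD into mitochondria. It had 671, 732, 550.1 and 792 CPM in WT and 254, 324, 446 and 429 CPM in db/db. All db/db libraries lay below all WT libraries. Its log2 fold change was -0.92 with an SE of 0.17 and an edgeR adjusted p of 0.000645. Nadsyn1, the last enzyme of the route from nicotinic acid, was below the filter with 14, 10, 9 and 17 counts in WT and 7, 10, 4 and 7 in db/db. Its db/db libraries lay below the WT libraries in CPM (exact two-sided permutation p = 0.0286, the smallest possible), but over every gene with a count its edgeR adjusted p was 0.141. Nmrk2, a muscle form of the riboside kinase, had 0, 0, 0 and 1 counts in WT and 6, 1, 9 and 0 in db/db and overlaps the antisense gene Atcayos, which averaged 0.424 CPM in WT and 8.52 CPM in db/db, so the Nmrk2 counts are uncertain. Qprt, which feeds NAD synthesis from tryptophan, had at most 5 counts in any library. None of the 8 genes of the kynurenine branch, which leads from tryptophan to Qprt, passed the filter, and no library held more than 4 counts of any of them.

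Among the other NAD consumers, 13 of 15 ADP-ribose polymerases were tested, 3 were lower and 1 higher, 30.8% of those tested and near the 27.7% of all genes, and their median log2 fold change was -0.14. Parp6, a mono-ADP-ribosyltransferase, had 28.3, 27.9, 28.9 and 30.1 CPM in WT and 13.2, 8.91, 16.8 and 14.9 CPM in db/db. The WT libraries were almost equal and every db/db library was far below them, with a log2 fold change of -1.11 (SE 0.21, edgeR adjusted p = 0.000796). Parp3, a nuclear enzyme of DNA repair, went the other way, at 25.9, 18.1, 22.9 and 21.2 CPM in WT and 46.9, 36.3, 42.6 and 37.6 CPM in db/db. The genotypes did not overlap, and the log2 fold change was 0.89 (SE 0.18, edgeR adjusted p = 0.00111). Parp3 overlaps Rrp9, whose own log2 fold change was 0.10. Tnks2, a tankyrase, fell from 125 ± 14.1 to 79.3 ± 12.8 CPM (SD, n = 4 each; edgeR adjusted p = 0.00256), and Tiparp, a target of the aryl hydrocarbon receptor, had a log2 fold change of -0.78 (SE 0.22, edgeR adjusted p = 0.0143). Parp1, the main consumer of NAD after DNA damage, did not pass, at -0.35 with an edgeR adjusted p of 0.160.

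**Figure D3:**
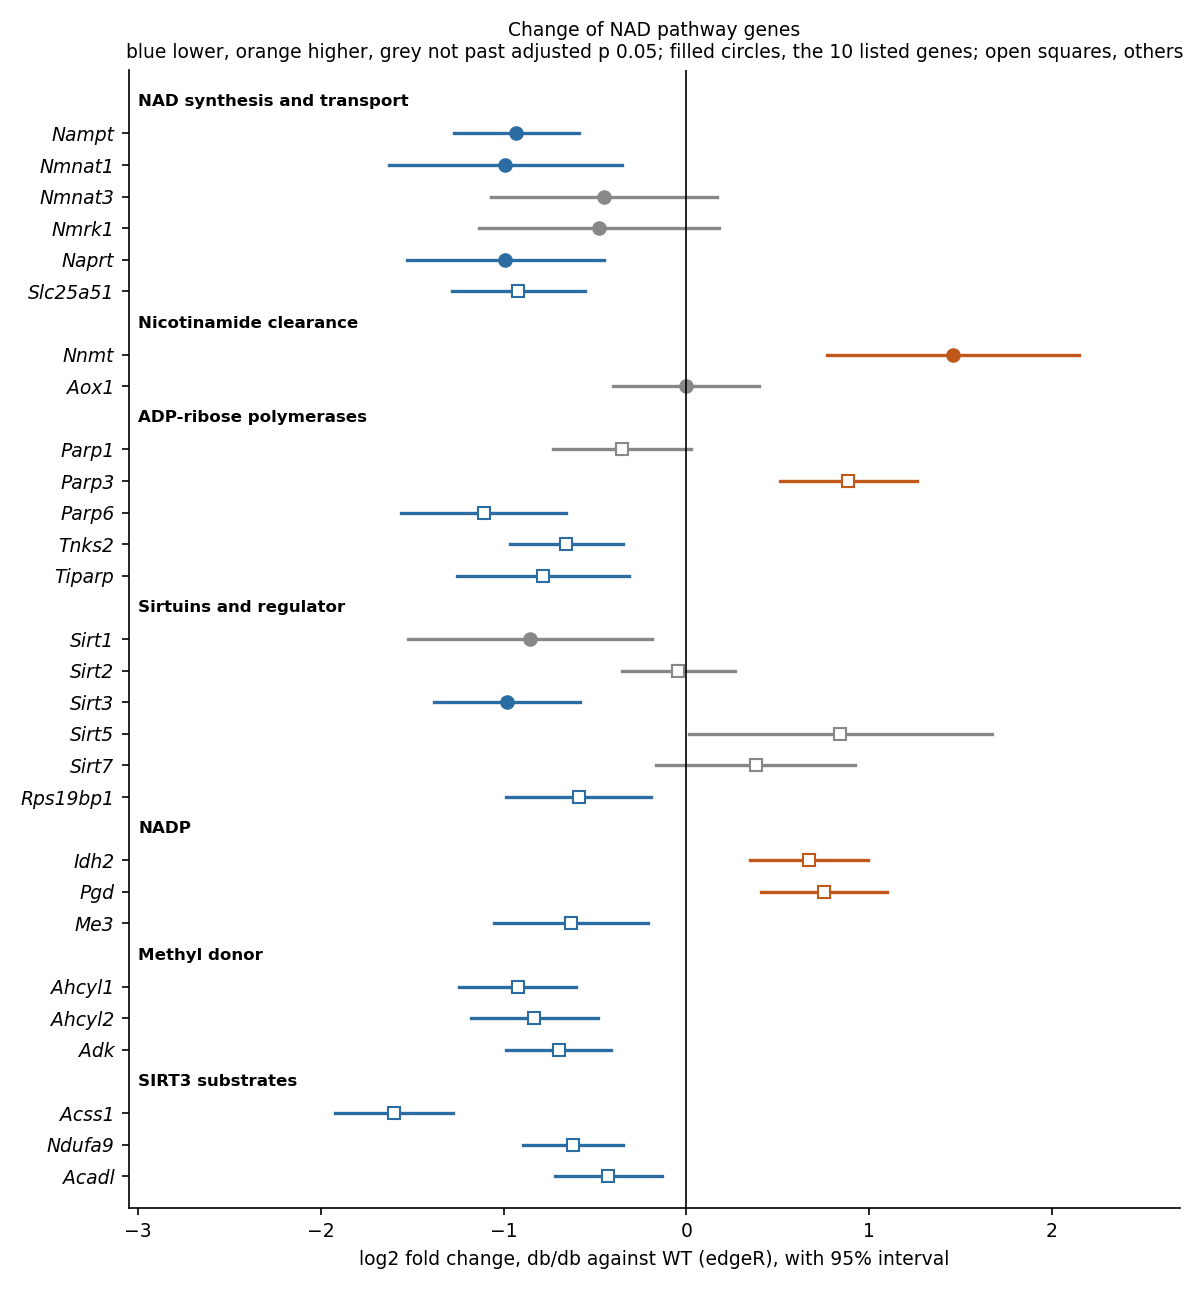
Log2 fold change of db/db against WT (x axis) with its 95% interval (bars) for the tested genes named in the text, grouped by role, as fitted by edgeR over 4 libraries per genotype. Genes called lower are blue, higher orange and not called grey, filled circles mark the 10 genes and open squares the others, and Acss1, at -1.60, lies furthest to the left.

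Of 8 SIRT3 substrates, all tested, 4 were lower and 1 higher, 62.5% of those tested beside the 27.7% of all genes, and their median log2 fold change was -0.31. SIRT3 acts on the proteins, so these RNA levels do not show its action, and a link to the Sirt3 difference was not tested. Acss1, which makes acetyl-CoA from acetate in mitochondria, had 128, 189, 145 and 159.6 CPM in WT and 42.1, 52.8, 53.2 and 57.7 CPM in db/db. The 4 db/db libraries were close together and far below WT. Its log2 fold change was -1.60 with an SE of 0.15 and an edgeR adjusted p of 8.01e-07, and it passed with the muscle score in the fit (-1.54, adjusted p = 0.000695) but not with the macrophage score (-0.39, adjusted p = 0.946). Ndufa9, a subunit of respiratory complex I, had a log2 fold change of -0.62 (SE 0.13, edgeR adjusted p = 0.0016). Acadl, an acyl-CoA dehydrogenase of fatty acid oxidation, had 1809, 1738, 1599 and 1894 CPM in WT and 1034, 1422, 1456 and 1328 CPM in db/db. The genotypes did not overlap, with a log2 fold change of -0.43 (SE 0.14, edgeR adjusted p = 0.0292). The call was lost without WT replicate 1, 2 or 4, with edgeR adjusted p-values of 0.0551 to 0.0871. Idh2, the mitochondrial isocitrate dehydrogenase that makes NADPH, was higher, at 383, 378, 323 and 384 CPM in WT and 458, 496, 717 and 669 CPM in db/db. Its groups did not overlap, with a log2 fold change of 0.67 (SE 0.15, edgeR adjusted p = 0.00303), and it passed with the muscle score (0.85, adjusted p = 0.0475) but not with the macrophage score (1.67, adjusted p = 0.453).

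Of 11 genes of NADP metabolism, 8 were tested, and 2 were higher and 1 lower, 37.5% of those tested beside the 27.7% of all genes. Beside Idh2, Pgd of the pentose phosphate pathway rose from 94.6 ± 13.2 to 159 ± 34.3 CPM (SD, n = 4 each), a log2 fold change of 0.75 (SE 0.16, edgeR adjusted p = 0.00202). Me3, the mitochondrial malic enzyme that makes NADPH, had a log2 fold change of -0.63 (SE 0.20, edgeR adjusted p = 0.0242) with overlapping groups and overlaps the antisense gene A230065N10Rik. Its call was lost without WT replicate 1 or 2 and without db/db replicate 1 or 2 (edgeR adjusted p = 0.0530 to 0.0746). Nnt, the mitochondrial transhydrogenase, whose gene is known to be disrupted in C57BL/6J mice, is annotated as a pair of overlapping genes with at most 4 counts in any library.

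Genes around S-adenosylmethionine, the methyl donor of NNMT, and the polyamines were described last. Of 15 such genes 11 were tested, 3 were lower and none higher, 27.3% of those tested beside the 27.7% of all genes. Ahcyl1, a relative of the enzyme that hydrolyses S-adenosylhomocysteine, had 455, 519, 439 and 549.7 CPM in WT and 185, 292, 288 and 270.4 CPM in db/db. All db/db libraries lay below all WT libraries, with a log2 fold change of -0.92 (SE 0.15, edgeR adjusted p = 0.0002). Its paralog Ahcyl2 had a log2 fold change of -0.83 (SE 0.16, edgeR adjusted p = 0.00096), and Adk, the adenosine kinase that removes the adenosine formed in that hydrolysis, -0.70 (SE 0.14, edgeR adjusted p = 0.000877). In both of these the genotypes did not overlap.

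Across settings, Nampt, Naprt, Sirt3 and Nnmt were called in every fit with another test, scaling or filter in which they were tested, with the replicate number as a block and without any single library. Their log2 fold changes ran over these fits from -0.99 to -0.78 for Nampt, from -1.13 to -0.78 for Naprt, from -1.06 to -0.83 for Sirt3 and from 1.15 to 1.85 for Nnmt. Nnmt had too few reads in a WT library to be tested when 10 counts were required in every sample. The fits with a muscle or macrophage score, given above, are the exceptions. Without db/db replicate 1 the log2 fold changes were -1.02 for Nmnat1, -0.99 for Naprt and 1.41 for Nnmt, which passed, and -0.25 for Nmnat3, -0.50 for Nmrk1 and -0.052 for Aox1, which did not. Of the other pathway genes, Slc25a51 (-0.79), Parp6 (-1.11), Parp3 (0.80), Tnks2 (-0.65), Tiparp (-0.70), Acss1 (-1.52), Ndufa9 (-0.56), Acadl (-0.33), Idh2 (0.77), Pgd (0.63), Ahcyl1 (-0.80), Ahcyl2 (-0.75) and Adk (-0.68) passed without it. Rps19bp1 (-0.53) and Me3 (-0.51) did not, nor did Sirt2 (0.019), Sirt7 (0.34) and Parp1 (-0.27).

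**Figure D4:**
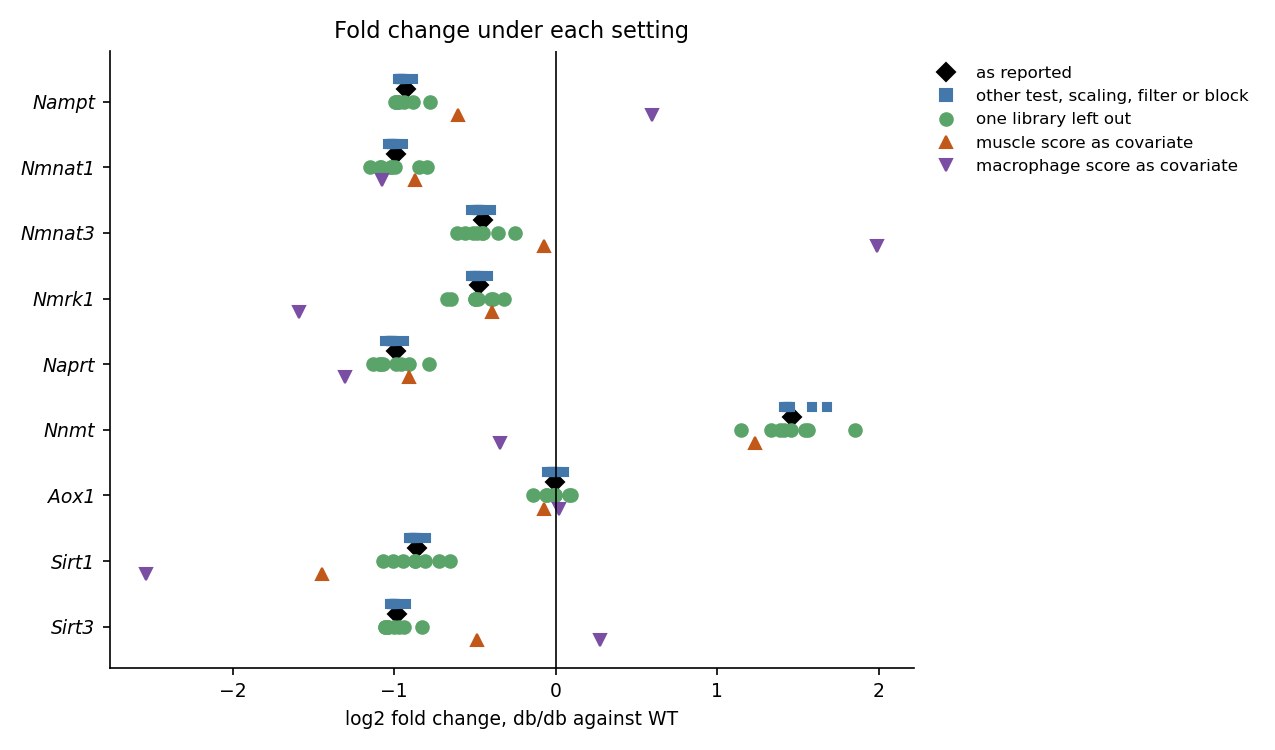
Log2 fold change of db/db against WT (x axis) of the 9 tested genes under each setting, with the reported value (diamonds), other tests, scalings, filters and the replicate block (squares), the fits that left out a library (circles) and the fits with a muscle (upward triangles) or macrophage (downward triangles) score. Squares and circles stay near the reported value, while the macrophage score moves Nampt to 0.60 and Sirt3 to 0.27.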

How the data were processed

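Single-end digital mRNA libraries of BAT from 4 WT and 4 db/db mice were analysed from the raw counts per Ensembl gene that the authors deposited. Per the study's methods, the authors used bbduk, STAR (mm10) and HTSeq-count. The submitters' processing notes instead name Trimmomatic, HISAT2 and DESeq2. Use of strand and of molecular identifiers is not given in the sources used here, so counts may include PCR copies. The deposited log2 normalized values and the sample sheet were not used. Groups came from the labels, and p-values measure the spread between these samples.

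Of 31053 identifiers, 31011 matched GENCODE M21. Genes were kept by filterByExpr (minimum count 10, minimum total 15), scaled by TMM and tested with edgeR 4.0.16 (quasi-likelihood, genotype only, R 4.3.3), with Benjamini-Hochberg adjustment at 0.05. Genes below the filter had an exact permutation test of log2 CPM (prior count 2). Floors cover counting error only, at 2374079 to 3240074 counts per library. In simulated data with 200 genes changed by 2 log2 units, 196 of the 199 changed genes tested were called, with 5 false calls among 9232 genes, and with none changed 1 false call was made among 9217.

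Alternatives were DESeq2 1.42.0, limma-voom (limma 3.58.1), other scalings and filters, a replicate block, muscle and macrophage scores as covariates, and leaving out each library. The 10 genes, the lists and the naming rule were chosen with earlier results of these data known. The rule names the 10 genes, all sirtuins, 8 further nicotinamide-related genes and, per list, up to 4 other called genes with the largest absolute log2 fold change. Aox2 and Aox4, named for having no counts, genes overlapping a named gene and the adipocyte markers given with values fall outside it. A gene of the lists is not reported here and was left out of their counts.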

Additional observations from a re-analysis of the deposited data

Results flagged for a closer look

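Over the 64 sets of 4 libraries examined, 4 held a library far from its group by Dixon's criterion, where chance gives about 3.2. Nampt stood at 67.09 CPM (223 counts) in db/db replicate 1, against 111.7 to 113.5 CPM in the other db/db libraries. Sirt7 stood at 10.82 CPM (34 counts) in db/db replicate 2, against 14.44 to 15.07 CPM. Tiparp stood at 28.73 CPM (71 counts) in WT replicate 1, against 43.59 to 45.42 CPM in the other WT libraries. Idh2 stood at 323.2 CPM (860 counts) in WT replicate 3, against 378.1 to 384.1 CPM.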

How the results depend on the processing

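Over the other tests, scalings and filters and the replicate block, 2018 to 3170 genes of all were called and 4 to 6 of the 10 members. Leaving out each library gave 2236 to 2483 genes of all, 4 to 6 members, 17 to 22 pathway genes and 13 to 17 pathway genes other than the members. When the muscle score entered the fit the counts were 605, 0, 2 (Acss1 and Idh2) and 2, with 73.6% of all calls higher in place of 57.1%, and with the macrophage score 18, 0, 0 and 0, where 0 members and 5 pathway genes had an unadjusted p under 0.05 by edgeR. Both scores overlap in large part with genotype, and the cause was not tested. With the macrophage score, log2 fold changes turned sign for Nampt (0.60), Nmnat3 (1.99), Nnmt (-0.34), Sirt3 (0.27), Aox1 (0.017), Sirt2 (0.97), Slc25a51 (0.77), Parp3 (-0.040), Tiparp (0.21), Me3 (0.50), Ahcyl1 (0.64), Ahcyl2 (0.26), Ndufa9 (0.093) and Acadl (0.60). In that fit Parp6 (-1.15), Tnks2 (-0.65) and Adk (-0.70) stayed close to their reported values without passing the test. The macrophage score shared 94.3% of its variance with genotype. That fit can therefore hardly separate the score from genotype, whether a value turned or stayed. Values near 0 also turned sign: Aox1 with limma-voom (0.0070), at least 10 counts in every sample (0.048), the replicate block (0.0049), and without WT replicate 2 (0.092) or db/db replicate 4 (0.084), with a range of -0.14 to 0.092 when single libraries were left out; Sirt2 with at least 10 counts in every sample (0.0061), the muscle score (0.032), and without WT replicate 2 (0.033) or db/db replicate 1 (0.019), with a range of -0.11 to 0.033. Of 306 values of named genes under alternatives other than leaving out a library, 255 kept direction and side of the threshold, and of 224 under leaving out a library, 203 did.

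Deviations of samples with the same replicate number correlated at 0.0383, 0.049, -0.0781 and -0.0137, and 3 of 8 samples correlated best with their own number, so the numbers are only names. With the replicate block, 2557 genes, 5 members, 22 pathway genes and 17 pathway genes other than the members were called. Depth limits Cd38, Nmnat2, Nmrk2, Qprt, Bst1, Sirt4 and Sirt6, which were not tested by the main filter.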
